A study of Mus musculus with 6 samples.

Results

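Collagen genes were examined in bulk RNA sequencing of mouse tongue tumours. They were taken as every gene whose symbol is Col, a type number, the letter a and a chain number, which gave 44 of the 18437 genes measured. The tumours grew in the tongues of C57BL/6 mice from injected 4MOSC1 cells, a mouse oral squamous cell carcinoma line. The control group (3 libraries) received 4MOSC1-con cells and the LIGHT group (3 libraries) received 4MOSC1 cells made to overexpress LIGHT, a ligand of the TNF superfamily whose gene is Tnfsf14. RNA came from tumour tissue and was depleted of ribosomal RNA. The comparison asks which collagen genes differed between LIGHT and control tumours. The sources used here do not give the age or sex of the mice. Nor do the labels tie a library to an animal, so p-values cover only the spread among these libraries, which may be technical.

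Collagens are extracellular proteins whose chains wind into a triple helix, built from the same chain or from different chains of a type. Fibrillar collagens (types I, II, III, V, XI, XXIV and XXVII) form the fibres that give connective tissue its tensile strength and are made mostly by fibroblasts. Basement membrane collagens comprise type IV, which forms the sheet under epithelia and around vessels, and types XV and XVIII, which are attached to that sheet. The others include type VI, which makes beaded filaments, the fibril-associated collagens that coat fibres, type VII, which anchors epithelium to the tissue beneath, and transmembrane collagens such as type XVII of the keratinocyte hemidesmosome. In carcinomas of the mouth, collagen lies both in the stroma and at the border of the tumour nests.

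Expression is given in TPM, which corrects for transcript length and states each gene as a share of its library, so that levels can be set side by side between genes. A difference between groups is LIGHT minus control on the log2(TPM + 1) scale, which understates the change of genes with low values. A gene was tested if it reached 1 TPM in at least 3 libraries. It passed at a Benjamini-Hochberg adjusted p under 0.05 in limma, a linear model fitted over all 13167 tested genes. Sequencing depth cannot be read from TPM.

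Tnfsf14 stood at 0.66, 0.53 and 0.79 TPM in control replicates 1, 2 and 3 and at 26.2, 25.9 and 23.9 TPM in the LIGHT libraries, as labelled. The number of genes at 1 TPM or more was 12713 to 12838 per control library and 13183 to 13271 per LIGHT library. Markers of cell types that can make collagen were read beside the collagen genes. The summed level of 10 fibroblast markers was 187 to 268 TPM in control and 323 to 472 TPM with LIGHT, and 1 of the 10, Thy1, passed. Without Thy1, which mouse T cells also carry, the sums were 129 to 178 TPM and 152 to 310 TPM and overlapped. Summed skeletal muscle markers reached 3360 to 5640 TPM in control and 5180 to 9100 TPM with LIGHT, with 0 of 16 passing in limma and 9 at an unadjusted p under 0.05, and the sums overlapped. Basal keratinocyte markers summed to 15800 to 18400 TPM in control and 11900 to 15600 TPM with LIGHT (0 of 8 passed, 2 had an unadjusted p under 0.05). Myofibroblast and smooth muscle markers summed to 262 to 501 and 379 to 670 TPM (1 of 5 tested passed, Tagln), and pericyte markers to 34.2 to 42.1 and 38.6 to 51.2 TPM (2 of 6 passed, Rgs5 and Abcc9), and both sums overlapped between groups. Des made up most of the myofibroblast and smooth muscle sum, with 223 to 432 TPM in control and 323 to 588 TPM with LIGHT. Over all tested genes 17.7% passed as higher and 5.41% as lower, and 4843 of 13167 had an unadjusted p under 0.05. In bulk tissue, fewer cells of a type and less RNA per cell cannot be told apart. The part of these markers in the collagen values was examined only for the fibroblast and skeletal muscle lists, by adding their mean level to the model. The fibroblast mean kept Thy1, which was separate between groups (difference 1.21).

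Collagen genes together made up 686, 499 and 449 TPM in the control libraries and 588, 563 and 667 TPM in the LIGHT libraries. These sums overlapped, with means of 545 ± 125 and 606 ± 54.4 TPM (SD, n = 3 each). Of the collagen total, 38.7% to 52.7% was fibrillar, 9.44% to 16.9% was basement membrane and 37.5% to 46.8% belonged to the other classes across the 6 libraries. Col17a1, Col1a1, Col1a2 and Col3a1 alone held 63.7% to 71.4% of it. These were the 4 highest collagen genes in every library of both groups.

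Of the 44 collagen genes, 25 were tested and 19 were too low. The tested ones held 3 that rose in LIGHT tumours, Col20a1, Col9a3 and Col11a2, and 0 that fell in limma (0 also at an unadjusted p under 0.05). That is 12% of the tested collagen genes called in either direction, against 23.1% of all tested genes, of which 17.7% were higher and 5.41% lower. Col11a2 entered the test through its LIGHT values alone, as described with its class, and without it 2 of 24 rose (8.33%). A total of 6 collagen genes had an unadjusted p under 0.05, all of them higher. Over all tested genes 4843 of 13167 did, 1303 of them lower. In 5 of 25 collagen genes (20%) the groups did not overlap, against 41.2% of all tested genes. All 5 had the LIGHT libraries above the controls, which held for 29.6% of all tested genes, and without Col11a2 they were 4 of 24 (16.7%). The 3 genes that rose had mean levels between 0.69 and 3.49 TPM, while none of the 4 collagen genes averaging at least 50 TPM passed. With the skeletal muscle markers in the model, Col20a1, Col9a3 and Col11a2 had differences of 0.66, 0.68 and 0.51 and limma adjusted p of 0.0976, 0.109 and 0.209. With the fibroblast markers (Thy1 included) in the model their differences were 0.55, 0.55 and 0.41 and the limma adjusted p 0.135, 0.162 and 0.265. Without markers the differences were 0.57, 0.56 and 0.46 with SE of 0.12 to 0.13, and with markers the SE was 0.17 to 0.20. In either model 0 collagen genes passed, and 573 and 271 genes were called higher over all tested genes. Both marker lists averaged higher with LIGHT, so with 6 libraries these fits cannot tell marker content from group. The median difference was 0.20 over the tested collagen genes and 0.09 (log2) over all tested genes. With trimmed-mean (TMM) scaling the all-gene median shifted by -0.11 to -0.03 and the collagen median stood at 0.08, and higher genes made up 47.6% of all calls in place of 76.6%. The collagen median minus that of all genes was 0.12 as deposited and 0.11 with TMM scaling, but 0.00 with no filter on low values (43 collagen genes), -0.01 with the muscle markers and -0.05 with the fibroblast markers in the model.

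**Figure D1:**
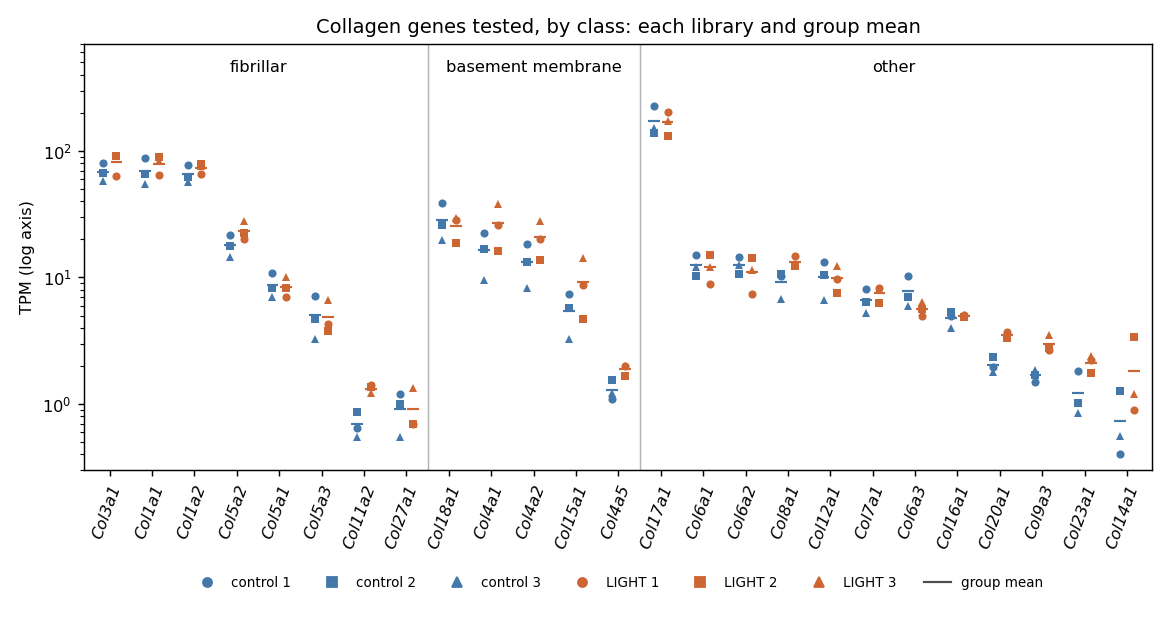
Level of each tested collagen gene in TPM (log axis) by class, with 1 point per library and a bar at each group mean (n = 3). Col17a1 and the types I and III genes stand above 50 TPM in every library, and Col20a1 and Col9a3 show LIGHT points that all lie above the control points.

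The libraries were ordered alike in many collagen genes. Control replicate 3 was the lowest of the 6 libraries in 17 of the 25 tested collagen genes (68%), against 30.3% of all tested genes. Control replicate 1 was the highest control in 18 of them (72%, against 52.7% of all tested genes). LIGHT replicate 3 was the highest of all in 8 (32%, against 18.9%). Without control replicate 1 the collagen median was 0.35 and that of all tested genes 0.11, and without control replicate 3 they were 0.08 and 0.06.

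The fibrillar class held the most abundant stromal collagens, and none of its genes above 2 TPM passed. Col1a1 and Col1a2 encode the chains of type I collagen, the main fibre of connective tissue, and Col3a1 encodes type III, which is mixed into fibres of soft tissue. Col1a1 measured 87.7, 65.5 and 54.4 TPM in control and 64.1, 89 and 83.8 TPM with LIGHT. Col1a2 measured 76.8, 62.2 and 57.3 TPM in control and 65.8, 78.6 and 75.5 TPM with LIGHT. Col3a1 measured 80.4, 66.9 and 58.3 TPM in control and 63.6, 91.5 and 91.9 TPM with LIGHT. In all 3 genes control replicate 1 lay above at least 1 LIGHT library, and LIGHT replicate 1 fell within the control range. The differences were 0.20 (SE 0.19, 95% interval -0.24 to 0.64) for Col1a1, 0.17 (SE 0.13, -0.12 to 0.46) for Col1a2 and 0.25 (SE 0.17, -0.14 to 0.65) for Col3a1, with limma adjusted p of 0.478, 0.371 and 0.324. Intervals of this width leave room for a rise of up to 0.64 in Col1a1 on the log2 scale or a small fall. With the mean of the skeletal muscle markers in the model, the signs turned, to -0.19 for Col1a1, -0.08 for Col1a2 and -0.04 for Col3a1. None passed in that fit, where the median SE of the tested collagen genes was 0.26. With a library left out the differences stayed positive, at 0.045 to 0.38 for Col1a1, 0.079 to 0.29 for Col1a2 and 0.15 to 0.43 for Col3a1.

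Because these genes lead the stroma, the windows around the annotated starts of Col1a2 and Col3a1 are shown to let their composition be compared. Each runs from 250 bases before the start to 50 bases after it on the plus strand (RefSeq, GRCm38.p6), at chr6:4505368-4505667 for Col1a2 and chr1:45311288-45311587 for Col3a1. Capitals mark the letters CCAAT or TATAAA on either strand.
Col1a2: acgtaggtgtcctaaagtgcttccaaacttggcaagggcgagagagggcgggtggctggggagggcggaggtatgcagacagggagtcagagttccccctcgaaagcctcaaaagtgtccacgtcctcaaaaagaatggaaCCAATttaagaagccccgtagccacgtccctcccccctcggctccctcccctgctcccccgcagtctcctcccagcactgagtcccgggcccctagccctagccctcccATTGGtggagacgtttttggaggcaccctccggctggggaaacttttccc
Col3a1: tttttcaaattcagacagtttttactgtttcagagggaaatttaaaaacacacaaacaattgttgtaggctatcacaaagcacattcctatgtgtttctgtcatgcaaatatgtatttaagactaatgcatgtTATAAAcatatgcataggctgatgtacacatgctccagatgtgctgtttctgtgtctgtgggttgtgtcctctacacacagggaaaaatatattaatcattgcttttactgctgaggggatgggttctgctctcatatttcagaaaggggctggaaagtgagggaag
The Col1a2 window held CCAAT at 2 places and no TATAAA, and the Col3a1 window held TATAAA at 1 place and no CCAAT. Their GC content was 61% and 37.7%. Among the 35 collagen genes with an entry, TATAAA (or TTTATA) was present in 5 (14.3%) against 14.2% of 27025 promoter windows of the same length, and CCAAT (or ATTGG) in 12 (34.3%) against 37.9%. The GC-rich motif GGGCGG (or CCGCCC) was present in 22 collagen windows (62.9%) against 35.9% of all windows. A match describes letters only, not binding.

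Type V collagen sits inside type I fibres and regulates their width, with chains encoded by Col5a1, Col5a2 and Col5a3. Col5a2 measured 21.6, 17.8 and 14.4 TPM in control and 20.2, 22.4 and 27.7 TPM with LIGHT. The groups overlapped and the difference was 0.37 (SE 0.17, 95% interval -0.01 to 0.76; limma adjusted p = 0.147). Col5a1 (7.03 to 10.8 TPM over all libraries) and Col5a3 (3.24 to 7.14 TPM) had differences of -0.03 and -0.01. Col27a1, which encodes a fibrillar chain found in cartilage and other tissues, had 0.55 to 1.33 TPM and a difference of -0.01.

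Col11a2, a chain of type XI collagen best known from cartilage fibres, was the fibrillar gene that passed. It measured 0.65, 0.87 and 0.55 TPM in control and 1.40, 1.35 and 1.22 TPM with LIGHT, a 1.92-fold difference of the means. The groups did not overlap and the difference was 0.46 (SE 0.13, limma adjusted p = 0.0343). All control values lay under 1 TPM and all LIGHT values above it, so Col11a2 entered the test through the LIGHT libraries and its direction was set by the filter. It no longer passed without control replicate 1 (adjusted p = 0.0812) or control replicate 3 (adjusted p = 0.103), after quantile normalization (adjusted p = 0.26), or with either cell marker list in the model, and without any of the LIGHT libraries it was not tested. The fibrillar genes not tested were Col11a1 (1.24, 0.77 and 0.50 TPM in control, 0.43, 0.54 and 0.51 TPM with LIGHT), Col24a1 (0.12 to 0.34 TPM) and Col2a1 (0.06 to 0.10 TPM in control, 0.16 to 0.26 TPM in LIGHT). Col2a1 encodes the main collagen of cartilage.

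**Figure D2:**
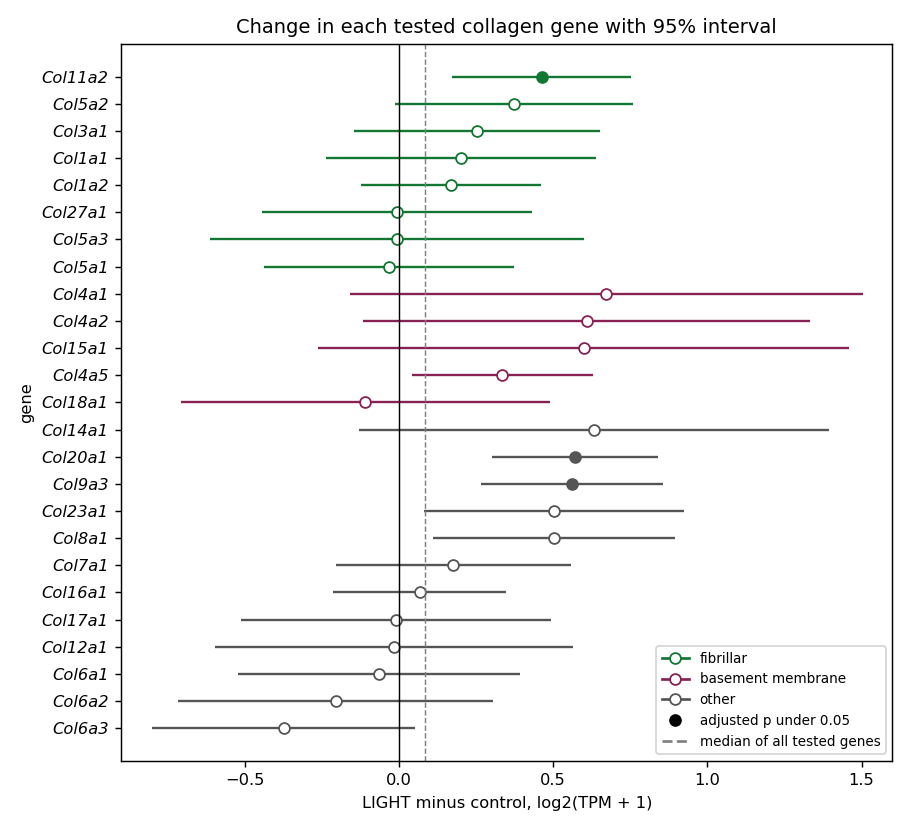
LIGHT minus control on the log2(TPM + 1) scale for the 25 tested collagen genes, with 95% intervals from limma. Filled points passed at an adjusted p under 0.05, and 19 of the 25 intervals include 0. The dashed line is the median of all tested genes, 0.09.

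Of the 5 tested basement membrane collagens 0 passed in limma, although 1, Col4a5, had an unadjusted p under 0.05. Over all tested genes 17.7% passed as higher and 5.41% as lower, so 0 of 5 says little about the class. Their median difference was 0.60, against 0.09 over all tested genes. Col4a1 and Col4a2 encode the common chains of type IV collagen, which pair in nearly every basement membrane. Col4a1 measured 22.6, 16.9 and 9.61 TPM in control and 26.1, 16.1 and 38.3 TPM with LIGHT. Col4a2 measured 18.5, 13.3 and 8.27 TPM in control and 20.2, 13.8 and 28.1 TPM with LIGHT. LIGHT replicate 3 was the highest library for both and control replicate 3 the lowest, and the remaining 4 libraries were mixed. The differences were 0.67 (SE 0.36, 95% interval -0.16 to 1.505) for Col4a1 and 0.61 (SE 0.31, -0.12 to 1.33) for Col4a2, with limma adjusted p of 0.216 and 0.2. Without control replicate 3 they were 0.35 and 0.33. The ratio of Col4a1 to Col4a2 stayed between 1.16 and 1.36 in all 6 libraries.

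The Col4a1 and Col4a2 genes lie head to head on chromosome 8, and the windows around their starts are shown because the genes share this sequence. The starts used for the windows, at 11312826 (Col4a1, minus strand) and 11312805 (Col4a2, plus strand), are 21 bases apart in the RefSeq annotation of GRCm38.p6. The gene entry of Col4a1 reaches further, to 11312889, so the distance depends on the start chosen. The windows are chr8:11312777-11313076 for Col4a1 and chr8:11312555-11312854 for Col4a2, each written 5′ to 3′ along its own gene. Capitals mark the 78 bases, chr8:11312777-11312854, that both windows contain and that therefore read as reverse complements.
Col4a1: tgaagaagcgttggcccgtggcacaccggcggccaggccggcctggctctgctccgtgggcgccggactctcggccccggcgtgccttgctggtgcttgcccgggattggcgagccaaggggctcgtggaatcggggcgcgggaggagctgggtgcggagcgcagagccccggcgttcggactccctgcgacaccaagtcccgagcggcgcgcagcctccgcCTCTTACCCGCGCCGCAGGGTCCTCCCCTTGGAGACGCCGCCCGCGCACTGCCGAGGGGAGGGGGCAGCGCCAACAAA
Col4a2: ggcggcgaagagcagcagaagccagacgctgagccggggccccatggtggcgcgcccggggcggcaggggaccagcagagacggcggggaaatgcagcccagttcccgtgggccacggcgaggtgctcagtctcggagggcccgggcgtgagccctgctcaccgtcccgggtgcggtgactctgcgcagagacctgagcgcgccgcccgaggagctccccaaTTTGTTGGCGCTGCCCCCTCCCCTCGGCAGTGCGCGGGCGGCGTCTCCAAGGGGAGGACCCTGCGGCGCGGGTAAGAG
The windows were 74% and 73.7% GC, and each held CCAAT at 1 place and no TATAAA. First exons of the pair overlap on opposite strands in the GENCODE M21 annotation, and the sources used here do not say whether the counting used strand, so reads from the overlap cannot be assigned between them.

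Col15a1, which encodes a collagen of vessel and muscle basement membranes, followed the same order of libraries. It measured 7.41, 5.73 and 3.26 TPM in control and 8.69, 4.71 and 14.2 TPM with LIGHT (difference 0.60, SE 0.37, limma adjusted p = 0.283). The summed level of 8 endothelial markers was 57.1, 43.6 and 29.8 TPM in control and 63.8, 50.8 and 95.4 TPM with LIGHT. All 8 markers were highest in LIGHT replicate 3 and lowest in control replicate 3, as were Col4a1, Col4a2 and Col15a1. This was not particular to endothelial markers. The summed fibroblast, myofibroblast and smooth muscle, Schwann cell, adipocyte and chondrocyte markers had the same highest and lowest library. The summed pericyte, skeletal muscle, basal keratinocyte, osteoblast and red blood cell markers did not. Of the 8 markers 2, Vwf and Cldn5, passed as higher, against 17.7% of all tested genes. The part of the endothelial markers in these collagen values was not tested. Col18a1, whose product releases endostatin, did not share this order, with 38.9, 26 and 19.8 TPM in control and 28.6, 18.6 and 29.7 TPM with LIGHT (difference -0.11, 95% interval -0.71 to 0.49, limma adjusted p = 0.793).

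**Figure D3:**
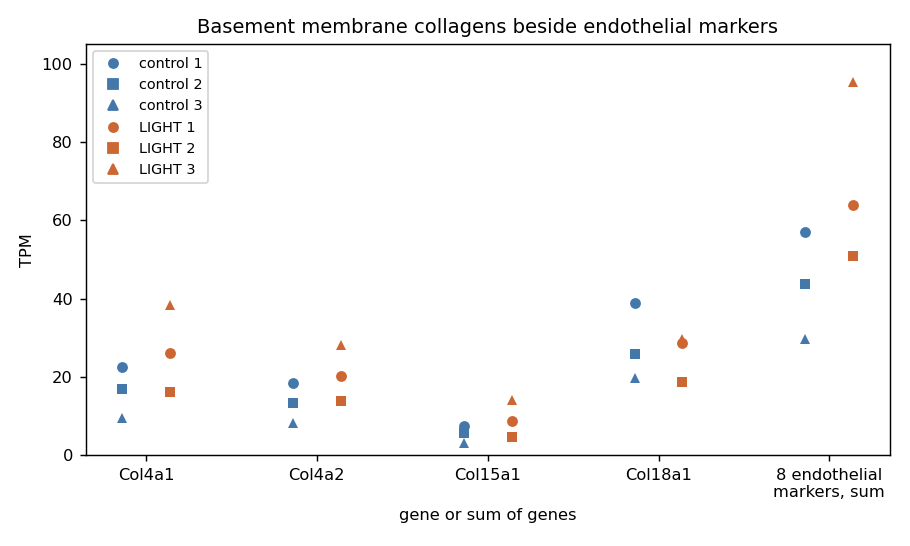
TPM in each library for 4 basement membrane collagen genes and for the sum of 8 endothelial markers, with control libraries on the left of each pair. LIGHT replicate 3 is highest and control replicate 3 lowest for Col4a1, Col4a2, Col15a1 and the marker sum, and control replicate 1 is highest for Col18a1. Sums of several other marker lists, not drawn, share that highest and lowest library.

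Col4a5, a chain of the type IV network of specialised basement membranes such as those of the kidney and skin, was low but did not overlap between groups. It measured 1.09, 1.55 and 1.23 TPM in control and 2, 1.67 and 1.98 TPM with LIGHT. The difference was 0.34 (SE 0.13, 95% interval 0.04 to 0.63), which did not pass (limma adjusted p = 0.0965). Its partner chains Col4a3, Col4a4 and Col4a6 were at or under 0.18 TPM in every library and were not tested.

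Among the other collagens, 2 of 12 tested genes rose, a share near the 17.7% of all tested genes that did. Both belong to the fibril-associated group that binds to the surface of collagen fibres. Col20a1 encodes type XX collagen, a fibril-associated chain of little known function. It measured 1.97, 2.35 and 1.78 TPM in control and 3.68, 3.32 and 3.48 TPM with LIGHT, 2.03 ± 0.29 against 3.49 ± 0.18 TPM (SD, n = 3 each). All LIGHT libraries lay above all control libraries, and the difference was 0.57 (SE 0.12, 95% interval 0.30 to 0.84, limma adjusted p = 0.0134), 1.72-fold in the means. Without LIGHT replicate 3 the adjusted p was 0.0531, and after quantile normalization it was 0.0634. The Col20a1 exons overlap those of another annotated transcript on the same strand, which was not analysed here.

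Col9a3 encodes a chain of type IX collagen, which decorates the type II fibres of cartilage. It measured 1.49, 1.69 and 1.87 TPM in control and 2.67, 2.75 and 3.48 TPM with LIGHT, 1.68 ± 0.19 against 2.97 ± 0.45 TPM (SD, n = 3 each). The groups were separate, with a difference of 0.56 (SE 0.13, 95% interval 0.27 to 0.86, limma adjusted p = 0.0194), 1.76-fold in the means. It did not pass without control replicate 1 (adjusted p = 0.0543), control replicate 2 (0.0559) or LIGHT replicate 3 (0.0796), nor after quantile normalization (0.12). Tcfl5, which overlaps its exons on the opposite strand, had 0.12 to 0.50 TPM across the libraries. Its partner chains were near absent, with Col9a1 listed at 0 in every library and Col9a2 at 0.06 TPM or less.

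Because Col9a3, Col11a2, Col2a1 and Col10a1 are known from cartilage, chondrocyte markers were read beside them. The defining markers Acan and Hapln1 were at or under 0.02 TPM, Matn3 at or under 0.05 TPM and Ucma at or under 0.14 TPM in every library. Sox9, a transcription factor of chondrocytes that squamous epithelia also express, measured 15.1, 10.8 and 10.4 TPM in control and 18.8, 19.3 and 20.7 TPM with LIGHT and rose by 0.67 (limma adjusted p = 0.0151). Col10a1, the collagen of enlarging cartilage cells, was not tested, with 0.05, 0.25 and 0.07 TPM in control and 0.59, 1.17 and 1.56 TPM with LIGHT. With no filter on low values, Col10a1 (adjusted p = 0.0215) and Col2a1 (adjusted p = 0.0439) also passed as higher. Exons of Col10a1 overlap on the opposite strand those of Nt5dc1, which stood at 9.7 to 14.7 TPM. Of 7 osteoblast markers, Ibsp was listed at 0, Sp7 and Dmp1 were at or under 0.11 TPM, and Bglap was at or under 1.96 TPM in every library. Runx2 (12.9 to 17.6 TPM) and Alpl (0.72 to 2.41 TPM) overlapped between groups. Bglap2, an osteocalcin gene, measured 5.83, 7.74 and 15 TPM in control and 10.9, 30.2 and 48.9 TPM with LIGHT and did not pass (limma adjusted p = 0.0857). The part of these markers in the collagen values was not tested.

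The remaining tested fibril-associated collagens did not pass. Col14a1, which binds fibres in loose connective tissue, measured 0.40, 1.26 and 0.56 TPM in control and 0.89, 3.41 and 1.21 TPM with LIGHT (difference 0.63, 95% interval -0.13 to 1.395, limma adjusted p = 0.204). LIGHT replicate 2 was the highest library and replicate 2 the highest of the controls. Col12a1 (6.63 to 13.3 TPM) and Col16a1 (3.96 to 5.37 TPM) had differences of -0.02 and 0.07, with limma adjusted p of 0.971 and 0.72.

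Col17a1 was the most abundant collagen gene, ranked 719 of all genes by mean level. It encodes the transmembrane collagen that ties basal keratinocytes to the basement membrane. It measured 226, 139 and 151 TPM in control and 204, 131 and 174 TPM with LIGHT. The groups overlapped, with means of 172 ± 47.5 and 170 ± 36.7 TPM (SD, n = 3 each), a difference of -0.01 (95% interval -0.51 to 0.49) and a limma adjusted p of 0.983. The ratio of Col17a1 to the keratin gene Krt14 was 0.0181, 0.013 and 0.0135 in control and 0.0207, 0.0187 and 0.0176 in LIGHT tumours, and that to Krt5 was 0.0273 to 0.0419 over all libraries. Both ratios overlapped between groups. Col23a1, another transmembrane collagen, measured 1.82, 1.02 and 0.85 TPM in control and 2.23, 1.75 and 2.38 TPM with LIGHT. Its difference of 0.50 did not pass with all libraries (limma adjusted p = 0.0842) and passed without control replicate 1 (adjusted p = 0.0255).

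Col8a1 encodes a short-chain network collagen made by vessel walls and remodelling tissue. It measured 10.3, 10.6 and 6.72 TPM in control and 14.7, 12.2 and 12.8 TPM with LIGHT. The groups did not overlap, and the difference of 0.50 (SE 0.17, 95% interval 0.11 to 0.89) did not pass (limma adjusted p = 0.0681). Col7a1, the anchoring fibril chain, lay between 5.28 and 8.26 TPM in all libraries, with a difference of 0.18 (limma adjusted p = 0.472).

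Type VI collagen, a filament-forming trimer of the chains encoded by Col6a1, Col6a2 and Col6a3, had lower means in LIGHT tumours for all 3 genes, and none passed (0 at an unadjusted p under 0.05). Col6a3 measured 10.3, 7.05 and 5.99 TPM in control and 4.97, 5.61 and 6.39 TPM with LIGHT. Its difference was -0.37 (SE 0.18, 95% interval -0.80 to 0.05, limma adjusted p = 0.183), the lowest among the tested collagen genes. Col6a1 (8.88 to 15.1 TPM) and Col6a2 (7.36 to 14.5 TPM) had differences of -0.06 and -0.20. Without LIGHT replicate 1 both were positive, at 0.12 and 0.04, and Col6a1 was also positive without control replicate 1 (0.06). The summed type VI level was 39.7, 28 and 30.8 TPM in control and 21.2, 35 and 30 TPM with LIGHT.

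The 19 genes not tested included 16 that never reached 0.5 TPM and 2, Col11a1 and Col10a1, that reached 1 TPM in some library. Beside those already given they were Col6a4, Col6a5 and Col6a6 of type VI, the fibril-associated Col19a1 and Col22a1, the short-chain Col8a2, the transmembrane Col13a1 and Col25a1, and Col26a1 and Col28a1. Col22a1, found at muscle-tendon junctions, stood at 0.06, 0.05 and 0.07 TPM in control and 0.12, 0.27 and 0.10 TPM with LIGHT.

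Ratios between chains of a type do not depend on how a library is scaled, and they show unequal change only. In 8 of 10 pairs of tested chains the groups overlapped. The Col5a1 to Col5a2 ratio was 0.501, 0.463 and 0.488 in control and 0.349, 0.366 and 0.364 in LIGHT tumours, 0.484 ± 0.0195 against 0.36 ± 0.00954 (SD, n = 3 each). Every LIGHT library thus had less Col5a1 for each unit of Col5a2 than any control library. The Col6a1 to Col6a2 ratio was 1.03, 0.98 and 0.968 in control and 1.21, 1.06 and 1.06 in LIGHT tumours. As a background, 81 of all 300 pairs of tested collagen genes (27%) had ratios that did not overlap, and the 10 pairs were formed after the values had been seen. The Col1a1 to Col1a2 ratio stayed between 0.95 and 1.14.

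**Figure D4:**
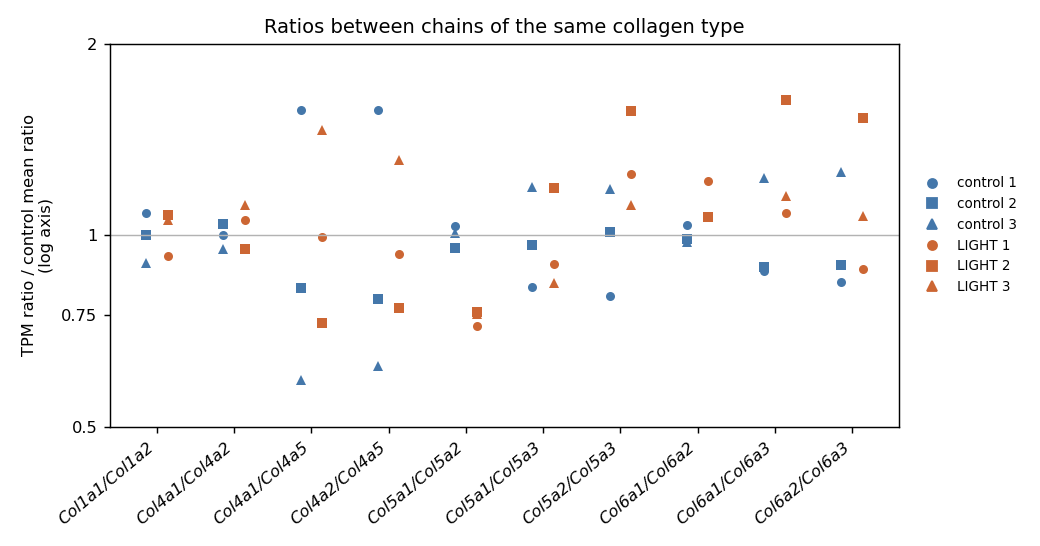
Ratio of TPM between 2 chains of a type in each library, divided by the control mean of that ratio (log axis). The LIGHT points of Col5a1 to Col5a2 lie below all control points, and those of Col6a1 to Col6a2 above them.

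Genes that modify, assemble, bind or cleave collagen were read as 9 lists with 103 measured genes, of which 89 were tested. Of these 89, 21 rose (23.6%, against 17.7% of all tested genes) and 0 fell in limma (2 of the lower genes had an unadjusted p under 0.05). The count of genes that rose was 8 without control replicate 2, 6 without control replicate 3, 11 without LIGHT replicate 2, 6 without LIGHT replicate 3 and 27 without control replicate 1. In the same order, 12%, 9.87%, 11.9%, 8.86% and 14% of all tested genes rose in these fits. The linked count was 2 with the skeletal muscle markers and 1 with the fibroblast markers in the model, against 4.35% and 2.06% of all tested genes. With TMM scaling 15 rose, against 12.8% of all tested genes, and 3 fell (Klhl12, Mia2 and P3h2). Among those called higher as deposited that no longer passed were Bmp1, P3h3, Adgrg1, Ltbp3 and Bgn, with limma adjusted p of 0.055 to 0.113. In the list of TGF-beta genes, 6 rose as deposited and 4 with TMM scaling.

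Inside the cell, collagen chains are hydroxylated and glycosylated before they fold. In this list 2 of 14 tested genes rose (median 0.21), against 17.7% and a median of 0.09 over all tested genes. Colgalt1, which adds galactose to collagen hydroxylysine, measured 48, 44.4 and 44.6 TPM in control and 62.8, 59 and 64.5 TPM with LIGHT, a difference of 0.44 (limma adjusted p = 0.00933). P3h3, a prolyl 3-hydroxylase family member, rose by 0.52 (limma adjusted p = 0.0425), while the lysyl hydroxylase gene Plod3 (0.44, adjusted p = 0.0632) and the prolyl 4-hydroxylase gene P4ha2 (0.44, adjusted p = 0.0858) did not pass. Among 10 genes of folding and secretion 0 passed in limma (2 at an unadjusted p under 0.05), with a median of 0.00. Creb3l1, a transcription factor of secretory collagen-making cells, had a difference of 0.52 (adjusted p = 0.0635, and 0.0419 without control replicate 1), and the secretion genes Mia2 and Klhl12 had -0.26 and -0.21 (adjusted p = 0.122 and 0.163). Serpinh1, the collagen chaperone, was at 15.8 to 35.6 TPM in control and 26.5 to 42.8 TPM with LIGHT (adjusted p = 0.358).

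Outside the cell, propeptides are trimmed and chains are crosslinked. In the trimming list 1 of 5 tested genes rose, Bmp1, the C-propeptide protease (difference 0.46, limma adjusted p = 0.0347), with a list median of 0.34. Its enhancer Pcolce had a difference of 0.58 and did not pass (adjusted p = 0.0644). Among 5 lysyl oxidase genes 1 rose, Loxl4, and the median was 0.29. Both counts compare with 17.7% of all tested genes that rose, and both medians with 0.09. Loxl4 measured 2.83, 2.87 and 1.72 TPM in control and 7.73, 6.37 and 6.8 TPM with LIGHT, a difference of 1.21 (limma adjusted p = 0.00326). Its groups were separate, and it passed in 16 of 17 other settings, the exception being the fibroblast markers in the model (adjusted p = 0.0578).

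Small proteoglycans and glycoproteins shape collagen fibres, and laminins and their partners build basement membranes with type IV collagen. Of 14 tested fibril-regulating partners 3 rose, against 17.7% of all tested genes (list median 0.56), and Dcn, Lum and Dpt of this list are also fibroblast markers. This count was 6 without LIGHT replicate 1. It was 1 when control replicate 2, control replicate 3, LIGHT replicate 2 or LIGHT replicate 3 was left out, and 1 with either marker list in the model. Prelp, a leucine-rich proteoglycan that links collagen to basement membranes, measured 3.9, 4.42 and 3.33 TPM in control and 13.8, 15.2 and 19.6 TPM with LIGHT. That is 4.16-fold in the means and 1.80 on the log2 scale (SE 0.15, limma adjusted p = 0.000791), and it passed in all 17 other settings. Fn1 (fibronectin, 0.80, limma adjusted p = 0.0264) and Bgn (biglycan, 0.54, adjusted p = 0.0426) rose as well. Of 14 tested basement membrane partners 4 rose, against 17.7% of all tested genes (list median 0.38). They were Agrn (agrin, 0.55), Lama5 (laminin alpha 5, 0.61), Pxdn (peroxidasin, which crosslinks type IV collagen, 0.84) and Lamb2 (laminin beta 2, 0.46). Their limma adjusted p was 0.0188 to 0.0293. The basement membrane partners that rose numbered 7 without control replicate 1, 1 without control replicate 2 or LIGHT replicate 1, and 0 when control replicate 3 or LIGHT replicate 3 was left out. With either marker list in the model the count was also 0. For both lists of partners, the share of all tested genes that rose was 8.86% to 14.6% with a library left out. It was 4.35% and 2.06% with the skeletal muscle and fibroblast markers in the model. For Agrn without control replicate 3 and without LIGHT replicate 3 the limma adjusted p was 0.0584 and 0.0524.

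Of 8 tested collagen receptors 2 rose, against 17.7% of all tested genes (list median 0.25). With a library left out 0 to 1 rose, 0 being without control replicate 3, against 8.86% to 14.6% of all tested genes. Ddr1, a receptor kinase of epithelial cells that binds collagen, measured 59.1, 61.8 and 50.2 TPM in control and 81, 72.3 and 82.9 TPM with LIGHT, a difference of 0.46 (limma adjusted p = 0.0188), with adjusted p of 0.052 without control replicate 3 and 0.0731 without LIGHT replicate 3. Adgrg1, an adhesion receptor for type III collagen, rose by 0.33 (limma adjusted p = 0.0362), and the call was lost when any single library was left out. Of 5 tested collagen-cleaving proteases 2 rose, against the same 17.7% (list median 0.26). The protease count was 1 without control replicate 2 or 3 or LIGHT replicate 2 and 0 without LIGHT replicate 3, again beside 8.86% to 14.6% of all tested genes with a library left out. Mmp2, the gelatinase that also cleaves type IV collagen, measured 25.6, 23.1 and 18.7 TPM in control and 31, 39.5 and 36.2 TPM with LIGHT (0.65, limma adjusted p = 0.016; 0.0502 without LIGHT replicate 2 and 0.0551 without LIGHT replicate 3). Mmp14, the membrane-bound activator of the Mmp2 product, rose by 0.50 (limma adjusted p = 0.0207). The collagenase gene Mmp13 stood at 79.3, 101 and 61.6 TPM in control and 55, 61.2 and 72.2 TPM with LIGHT and did not pass (-0.34, adjusted p = 0.22).

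TGF-beta signalling is a known inducer of collagen genes in fibroblasts. Of its 14 genes 6 rose, against 17.7% of all tested genes, and 0 fell in limma (0 at an unadjusted p under 0.05; list median 0.37). This count was 7 without control replicate 1, 1 without control replicate 2 and 3 without LIGHT replicate 1. It was 2 when control replicate 3, LIGHT replicate 2 or LIGHT replicate 3 was left out, and 0 with either marker list in the model. Calls fell over all tested genes too, to 8.86% to 14.6% higher with a library left out. With the skeletal muscle and fibroblast markers in the model 4.35% and 2.06% of all tested genes rose. Tgfb1 measured 66.3, 53.5 and 50.6 TPM in control and 82.6, 83.2 and 79.2 TPM with LIGHT (0.53, limma adjusted p = 0.0145; 0.0519 without control replicate 2). Tgfb2 measured 1.56, 1.29 and 0.97 TPM in control and 2.88, 2.97 and 2.8 TPM with LIGHT (0.78, limma adjusted p = 0.00683). Both ligand genes were separate between groups. The receptor genes Tgfbr1 and Tgfbr3, the signal mediator Smad3 (0.62, adjusted p = 0.0233) and the latent binding protein gene Ltbp3 (0.38, adjusted p = 0.035) also rose. Of the 21 genes of the 9 lists that rose, 13 lost the call when each of 4 to 6 single libraries was left out, with limma adjusted p of 0.0503 to 0.149: Tgfbr1, Tgfbr3, P3h3, Bmp1, Fn1, Bgn, Lama5, Pxdn, Lamb2, Adgrg1, Mmp14, Smad3 and Ltbp3.

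**Figure D5:**
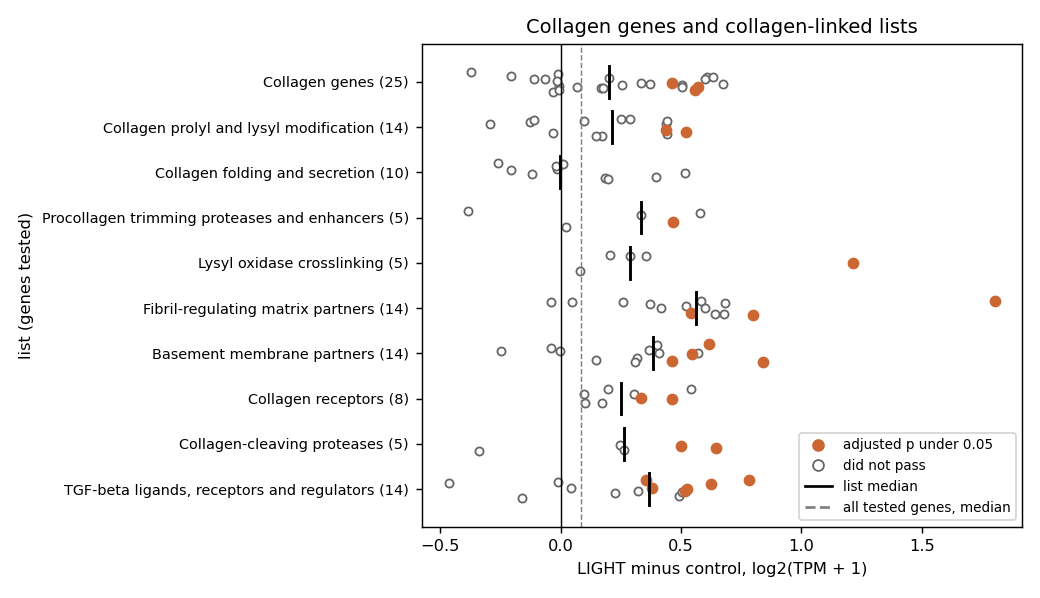
LIGHT minus control on the log2(TPM + 1) scale for each tested collagen gene and each tested gene of the 9 lists, with filled points at an adjusted p under 0.05, a bar at each list's median and a dashed line at the median of all tested genes (0.09). Loxl4 (1.21) and Prelp (1.80) lie beyond every collagen gene.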

How the data were processed

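Total RNA behind the 6 libraries was depleted of ribosomal RNA, per the labels' protocols. HISAT, Bowtie2 and GRCm38.p6 appear in the submitters' processing notes, without what each did. Which quantifier and gene models were used, and which filters, is not given in these sources. Values deposited by the authors are TPM per gene, 1 column per library per the file headers. TPM keep no depth, so no counting interval can be given. As shares of 1 total, TPM also fall when abundant genes rise.

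Genes at 1 TPM or more in 3 libraries were fitted on log2(TPM + 1) with limma 3.58.1 (R 4.3.3; eBayes with a trend; 2-sided) without covariates, with Benjamini-Hochberg adjustment over all tested genes. The code was tested on simulated data. No 2 libraries held identical values. Values were given per library for collagen genes that passed, that averaged 50 TPM or more or that had the 3 smallest p in their class, and from each linked list up to 4 genes by smallest p could be named. Tgfbr1, Tgfbr3, P3h2 and further collagen genes named outside that rule were chosen after their values were seen. The members and lists were chosen with earlier results of these data known. Of the symbols, 18361 of 18437 matched the RefSeq GRCm38.p6 gene table, with 44 of 44 collagen genes, and 35 had a promoter entry.

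Alternatives were pseudocounts of 0.1 and 0.5, no filter, a filter at 5 TPM, TMM factors computed on the TPM, quantile normalization, each library left out, the replicate number as a block, limma without trend, robust limma, and the mean of the skeletal muscle or fibroblast markers (Thy1 included) as a covariate. Summed levels of the marker lists not given above were 24.6 to 34 TPM in control and 32.4 to 52.4 TPM in LIGHT tumours for Schwann cells, 36.5 to 95.1 and 65.8 to 121 TPM for adipocytes (nearly all Fabp4, with Adipoq at 0.22 TPM or less), 70 to 453 and 119 to 2090 TPM for red blood cells, 24.3 to 33.7 and 29.7 to 66.9 TPM for osteoblasts, and 10.5 to 15.3 and 19 to 20.8 TPM for chondrocytes (nearly all Sox9). Plots used matplotlib 3.10.9 (Python 3.11.15).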

Additional observations from a re-analysis of the deposited data

How the results depend on the processing

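The number of collagen genes called higher, 3 as reported, was 5 with no filter on low values and 0 with a filter at 5 TPM (none of the 3 was tested), quantile normalization, or the skeletal muscle or fibroblast markers in the model. With 1 library left out it was 0 to 2. The fibrillar count of 1 became 2 with no filter and 0 with the 5 TPM filter, quantile normalization and either marker list, and 0 to 1 with a library left out. The count of 2 in the other classes became 0 with the 5 TPM filter, quantile normalization and either marker list, and 0 to 2 with a library left out. No basement membrane gene was called under any setting. Linked genes called higher, 21 as reported, numbered 2 with muscle and 1 with fibroblast markers and 6 to 27 with a library left out. The share of all tested genes called higher, 17.7% as reported, was 4.35% and 2.06% with those markers. It was 8.86% to 14.6% with a library left out. Linked genes called lower, 0 as reported, numbered 3 with TMM and 3 with quantile normalization and 0 to 1 with a library left out. The cause was not tested.

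The labels do not say whether replicate numbers pair the samples. Same-numbered deviations from the group means correlated at 0.37, 0.237 and 0.00995, and control 3 correlated best with LIGHT 2 (0.332). Deviations within a group of 3 sum to 0 and so bind these correlations to each other, which therefore cannot decide it. With the replicate number as a block, collagen genes called higher numbered 3 and fibrillar genes 0 (Col11a2 at adjusted p = 0.058), while Col14a1 passed (0.0428). The all-gene calls moved from 712 to 907 lower.

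Differences of uncalled genes that changed sign were, with the fibroblast markers in the model, Col17a1 at 0.37, Col1a1 at -0.11, Col3a1 at -0.074, Loxl1 at -0.13, Mmp9 at -0.016, Col14a1 at -0.14, Col16a1 at -0.022 and Col18a1 at 0.086. With the muscle markers they were Col1a1 at -0.19, Col1a2 at -0.08, Col3a1 at -0.042 and Loxl1 at -0.073. Quantile normalization gave Loxl3 -0.067, Col16a1 -0.14 and Col7a1 0.00, and TMM gave Col16a1 -0.034. With a library left out, the ranges that crossed 0 were -0.15 to 0.21 for Col17a1, -0.27 to 0.19 for Col12a1, -0.034 to 0.15 for Col16a1, -0.33 to 0.14 for Col18a1, -0.15 to 0.072 for Col27a1, -0.16 to 0.12 for Col5a1, -0.23 to 0.24 for Col5a3, -0.23 to 0.12 for Col6a1 and -0.40 to 0.036 for Col6a2.

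Depth is unknown, and with 3 libraries a group the intervals of 19 of 25 tested collagen genes included 0.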
